A study of Homo sapiens with 5 samples.

Results

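The genes described here encode proteins of the red cell membrane and the carbonic anhydrases of the red cell cytosol. They are GYPC (glycophorin C), SLC4A1 (the anion exchanger band 3), ANK1 (ankyrin-1), EPB42 (protein 4.2), RHAG (the Rh-associated glycoprotein), XK (the Kx antigen protein), CA1 and CA2. The 8 genes were listed by name for their function, with earlier results of these data known. Every probe set whose single gene symbol in the platform's annotation was one of them was taken. This gave 15 probe sets for 7 of the 8 genes, out of 22283 on the array, of which 19071 carried a single symbol, for 11963 genes. No probe set was paired with GYPC by the annotation used here, so GYPC was not analysed.

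Signals came from TF-1, an established human erythroleukaemia line that depends on GM-CSF and serves as a model of erythroid progenitors. The 5 groups, with 1 array each, were DbSCL cells under Steel factor (SF, 20 ng/mL), vector cells under SF (20 ng/mL), DbSCL cells under erythropoietin (Epo, dose not stated in the labels), vector cells under Epo, and vector cells under GM-CSF (5 ng/mL). DbSCL cells carried an MSCV retrovirus, marked with GFP, that expresses a form of SCL unable to bind DNA. Vector cells carried the GFP-marked MSCV retrovirus alone, all groups were deprived of growth factor overnight, and all were then stimulated for 6 h. The labels do not say that the cells' own SCL gene, TAL1, was removed, and no group was left unstimulated. No sort of GFP-positive cells is described in the labels. With 1 array per group there was no replicate error and no test, so each difference below is one between single arrays.

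Band 3 exchanges chloride for bicarbonate across the red cell membrane, and carbonic anhydrase inside the cell interconverts carbon dioxide and bicarbonate, so that together they carry carbon dioxide in blood. Ankyrin-1 ties band 3 to the spectrin skeleton under the membrane, and protein 4.2 strengthens that link, which is why loss of any of these proteins gives spherocytic red cells. RHAG is an ammonia channel that forms a complex with the Rh proteins, and XK is a lipid scramblase linked to the Kell protein. In erythroid cells SCL binds DNA with E proteins, LMO2, LDB1 and GATA1, at sites made of an E-box (CANNTG) and a GATA motif, and genes of this group are known erythroid targets of GATA1.

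RefSeq's table of promoter sequences (GRCh38.p14) held RHAG and EPB42 among the genes with a probe set. Their 250 bases before the annotated start are shown because no other gene with a probe set was held. RHAG was the member with lower signals in DbSCL cells under both cytokines, and EPB42 a member whose signal hardly varied. The pair was not chosen for these signals. The RHAG stretch is chr6:49636840-49637089 on the minus strand, and the EPB42 stretch is chr15:43221019-43221268 on the minus strand, upstream of a start that lies inside the gene's full annotated span. Capitals mark each GATAA on either strand (TTATC is its reverse complement).
RHAG: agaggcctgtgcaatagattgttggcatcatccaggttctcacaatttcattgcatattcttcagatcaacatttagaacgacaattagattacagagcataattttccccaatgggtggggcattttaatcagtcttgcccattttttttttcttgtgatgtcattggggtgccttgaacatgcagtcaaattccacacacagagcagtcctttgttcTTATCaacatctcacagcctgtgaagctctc
EPB42: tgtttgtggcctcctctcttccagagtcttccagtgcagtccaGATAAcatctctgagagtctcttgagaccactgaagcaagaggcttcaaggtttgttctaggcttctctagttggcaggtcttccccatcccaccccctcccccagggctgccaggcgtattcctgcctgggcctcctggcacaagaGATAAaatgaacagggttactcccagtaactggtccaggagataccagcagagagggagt
RHAG held 1 GATAA, read on the reverse strand, whose first printed base lay 31 bases before the start. EPB42 held 2 on the forward strand, beginning 207 and 60 bases before the start. A GATAA on either strand was present in 20.4% of the 35116 promoters of the same length. No CANNTG, which reads the same on both strands, was found in either stretch, against 61.8% of all promoters holding at least 1. These letters describe the 2 windows and do not identify binding sites.

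Of the 15 probe sets, 13 were above the floor for low signals on all 5 arrays. That floor, a log2 signal of 4.45, is the 40th percentile of the values of all probe sets but controls. It is a convention and not a detection call. The range over the 5 arrays was under 0.3 on the log2 scale for 11 probe sets and over 1 for 3, which were 1 probe set each of RHAG, XK and CA1. Of 7918 genes that exceeded the floor on every array, 3.94% had a range at least that of CA1, 4.55% at least that of RHAG and 5.01% at least that of XK. SLC4A1 (76.6%), ANK1 (87.2%) and EPB42 (88.8%) were among the less variable genes by the same measure. These shares are not matched for signal. The spread of a difference, estimated as described below, was 0.13 in the dimmest of 10 bins of mean signal and 0.24 in the brightest. The brightest probe set stood for each gene, and signals of different probe sets were not compared with each other.

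**Figure D1:**
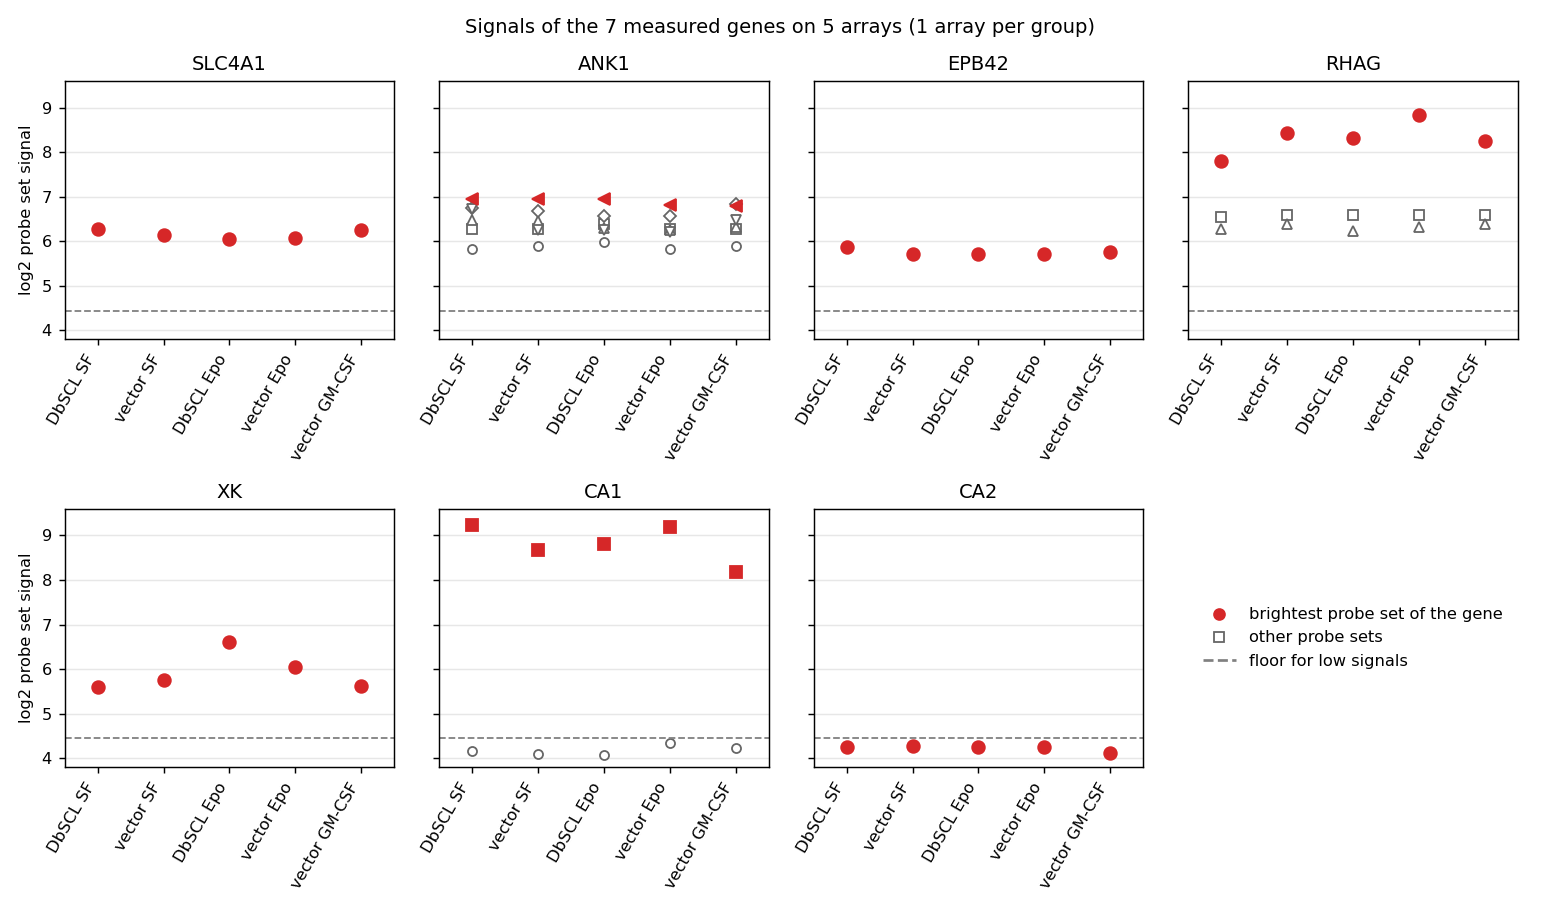
Log2 probe set signal (y axis) of the 7 measured genes on each of the 5 arrays (x axis), 1 point per probe set and array, with the brightest probe set of each gene filled and the floor of 4.45 dashed. RHAG, XK and CA1 each have 1 probe set that moves by more than 1 over the arrays. SLC4A1, EPB42 and the brightest ANK1 probe set stay nearly level, while 1 other ANK1 probe set, 208352_x_at, ranges over 0.52. CA2 lies below the floor on every array.

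The arrays themselves differed. The 5 column medians spanned only 0.08. The mean of 18 hybridization control probe sets was 10.57 on DbSCL SF, 10.02 on vector SF, 9.78 on DbSCL Epo, 9.58 on vector Epo and 10.53 on vector GM-CSF. The 18S ribosomal RNA signal ran over 1.56 (vector Epo lowest, vector GM-CSF highest), and the 28S signal over 0.69. For beta-actin the 3' probe set exceeded the 5' one, a gap that reflects RNA integrity and labelling, by 3.33 on DbSCL SF, the widest gap, and by 1.89 on vector SF, the narrowest. Of 14 erythroid and TF-1 markers, 11 were on the array and all 11 were above the floor on every array, KLF1 (7.70 to 7.78) and GATA1 (6.57 to 6.87) among them. Of markers of other cells, 1 of 5 granulocyte and monocyte genes, 4 of 5 lymphoid, 3 of 4 megakaryocyte and 3 of 4 stromal genes on the array were also above it, while CD14, ELANE and CSF1R were below it on all 5 arrays. The spread of a single difference, estimated without replicates from the disagreement between the 2 DbSCL differences in 10 bins of mean signal, was 0.13 to 0.24 (log2). This spread includes any real difference in response between the cytokines. Many probe sets held identical values on several arrays, which may make it too small, so it does not stand in for replicate error.

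The first question was what the DNA-binding-defective SCL does to these genes at equal cytokine. RHAG was the member that was lower in DbSCL cells under both. Its log2 signal was 7.81 in DbSCL cells under SF, against 8.44 in vector cells under SF, and 8.33 in DbSCL cells under Epo, against 8.85 in vector cells under Epo. On the vector GM-CSF array it was 8.24. The DbSCL SF array was thus the lowest of the 5 and the vector Epo array the highest.

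The RHAG difference was −0.63 under SF (1.54-fold lower) and −0.52 under Epo (1.43-fold lower), 2.78 and 2.31 times the estimated spread. Of the genes compared, 3.08% under SF and 4.14% under Epo lay at least as low. In bulk RNA, fewer cells expressing a gene and less of its RNA per cell cannot be told apart. The differences under SF and under Epo come from separate arrays. A drop of at least 0.5 under both cytokines, a limit chosen after the RHAG values were seen, was found in 92 of 8272 genes (1.11%). The other RHAG probe sets did not follow. Probe set 206146_s_at read 6.55 on DbSCL SF and 6.59 on vector SF, and the value 6.59 was identical to all digits on the vector SF, DbSCL Epo and vector Epo arrays. Probe set 211254_x_at gave differences of −0.12 under SF and −0.07 under Epo. The _s_at and _x_at names mark probe sets whose probes can match more than 1 transcript. Probe set 206145_at, which carried the difference, has neither mark. The brightest probe sets of CA1 (205950_s_at), EPB42 (210746_s_at) and ANK1 (208353_x_at) do carry such marks, so the same limit holds for them. The mean of the 3 probe sets differed by −0.26 under SF and −0.20 under Epo.

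Beside the RHAG difference under SF, the hybridization controls were 10.57 in DbSCL cells and 10.02 in vector cells, and the beta-actin gap between 3' and 5' probe sets was 3.33 in DbSCL cells and 1.89 in vector cells. Under Epo the same controls were 9.78 in DbSCL cells and 9.58 in vector cells, and the beta-actin gap was 3.01 in DbSCL cells and 2.74 in vector cells. Their part in the RHAG difference was not tested.

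CA1, the less active of the red cell carbonic anhydrases and a marker of adult-type erythroid cells, differed in opposite directions under the 2 cytokines. Its brightest probe set read 9.24 in DbSCL cells under SF, against 8.68 in vector cells under SF. Under Epo it read 8.81 in DbSCL cells, against 9.18 in vector cells. It was lowest, at 8.18, on the vector GM-CSF array. The difference was 0.56 under SF (1.48-fold higher, a height reached by 1.63% of genes) and −0.38 under Epo (1.30-fold lower, 8.35% of genes at least as low). These were 2.30 and 1.55 times the estimated spread. Over the processing settings tried for this probe set they ran from 0.51 to 0.69 under SF and from −0.41 to −0.26 under Epo. The array controls set beside RHAG above are those of the same arrays, and their part in the CA1 differences was not tested. The second CA1 probe set, 205949_at, was below the floor on all arrays (4.07 to 4.35) and gave no check.

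XK differed in opposite directions too, mostly under Epo. Its single probe set read 5.59 in DbSCL cells under SF, against 5.74 in vector cells under SF. Under Epo it read 6.60 in DbSCL cells, the highest of the 5 arrays, against 6.04 in vector cells. The vector GM-CSF array gave 5.61, so that the lowest 3 arrays lay within 0.15 of each other. The difference was −0.15 under SF, below the estimated spread of 0.18, and 0.56 under Epo (1.48-fold higher), a height reached by 0.825% of the genes compared.

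The signals of the genes that anchor the membrane skeleton moved little. The floor is not a detection call, and 4 of 5 lymphoid markers on the array were also above it on every array. Among them CD79A read 5.58 to 6.26 and CD3D 6.45 to 6.74. Whether the skeleton genes were expressed was not tested, so steady signals are not read as steady expression. SLC4A1 read 6.28 in DbSCL cells under SF, against 6.13 in vector cells, and 6.05 in DbSCL cells under Epo, against 6.07 in vector cells. Its GM-CSF value was 6.26. EPB42 read 5.87 in DbSCL cells under SF and the identical value of 5.72 in vector cells under SF, in DbSCL cells under Epo and in vector cells under Epo, with 5.76 under GM-CSF. The brightest ANK1 probe set read 6.94 in DbSCL cells and 6.94 in vector cells under SF, 6.95 in DbSCL cells and 6.81 in vector cells under Epo, and 6.79 under GM-CSF.

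ANK1 had 6 probe sets, whose DbSCL differences ran from −0.05 to 0.46 under SF and from 0.0024 to 0.16 under Epo. The 0.46 belonged to 208352_x_at alone (6.73 in DbSCL cells and 6.27 in vector cells), and the other 5 lay between −0.05 and 0.06. CA2, the fast carbonic anhydrase of red cells, was below the floor on all 5 arrays (4.13 to 4.28), so no difference is given for it. CA1, CA3 and CA2 are consecutive protein-coding genes in RefSeq (GRCh38.p14), with CA13 on the other side of CA1. CA3 was below the floor on all arrays as well (2.14 to 2.34), and CA13 had no matched probe set.

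None of the 6 compared members reached 2-fold in DbSCL against vector cells under either cytokine, where 0.355% of 8450 genes did under SF and 0.371% of 8359 under Epo. At 1.5-fold, RHAG was lower under SF, as were 3.68% of all genes, and no member passed under Epo, where 3.47% of genes did in either direction. The median difference of the 6 members was 0.08 under SF and −0.014 under Epo, and that of all genes compared was 0 in both cases.

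**Figure D2:**
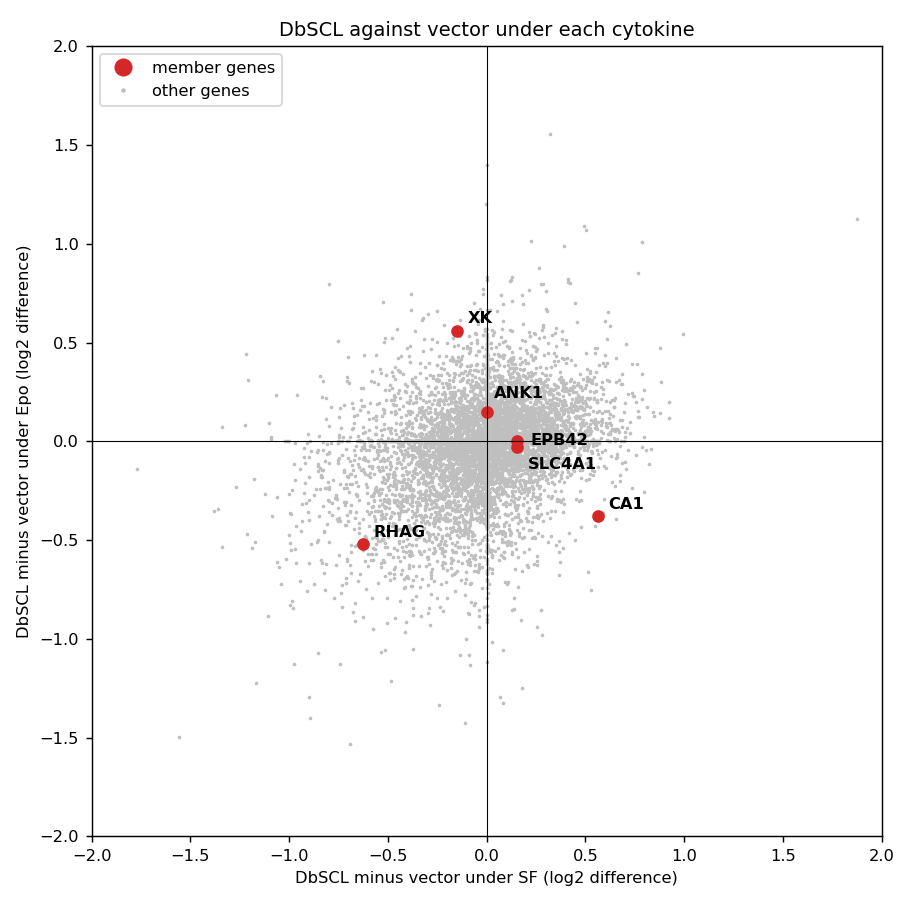
DbSCL minus vector log2 difference under SF (x axis) and under Epo (y axis), with the 6 compared members in red and all other genes in grey. RHAG lies lower on both axes (−0.63 and −0.52), CA1 and XK lie in quadrants where the 2 differences have opposite signs, and SLC4A1, ANK1 and EPB42 lie near the centre.

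The second set of comparisons asked what each cytokine gives relative to GM-CSF in vector cells. Both use the same GM-CSF array, so they are not independent of each other. CA1 was 9.18 under Epo and 8.18 under GM-CSF, a difference of 1.01 (2.01-fold higher). Under SF it was 8.68, or 0.50 above GM-CSF (1.42-fold higher). RHAG was 8.85 under Epo against 8.24 under GM-CSF (difference 0.60, 1.52-fold higher), and 8.44 under SF (difference 0.19). XK was 6.04 under Epo against 5.61 under GM-CSF (difference 0.43), and 5.74 under SF (difference 0.13).

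In the skeleton genes the differences were small and some were negative. SLC4A1 gave −0.19 for Epo and −0.13 for SF, EPB42 −0.04 for both, and the brightest ANK1 probe set 0.02 for Epo and 0.15 for SF. Over all 6 ANK1 probe sets the differences ran from −0.28 to 0.02 for Epo and from −0.22 to 0.15 for SF. CA1 was the 1 of 6 members that was 2-fold or more higher under Epo, where 3.46% of 8581 genes were. At 1.5-fold RHAG joined it, with 13.2% of all genes. No member reached 1.5-fold under SF relative to GM-CSF, where 8.18% of 8553 genes did. The median of the 6 members was 0.22 for Epo and 0.14 for SF, and that of all genes was 0 for each. With quantile normalization the member medians became 0.10 for Epo and −0.011 for SF, so the direction for SF depends on the scaling, and averaging the probe sets of each gene gave 0.063 for Epo.

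The shift between these arrays depended on signal level. In the bin of genes that holds CA1 (of 10 by mean signal) the median difference was 0.30 for Epo minus GM-CSF, and in that holding RHAG 0.34. Relative to these medians, a setting chosen after seeing the data, CA1 was 0.71 higher and RHAG 0.26 higher under Epo. Quantile normalization gave 0.67 for CA1 and 0.25 for RHAG. For SF minus GM-CSF, the CA1 difference was 0.27 relative to its bin and 0.24 after quantile normalization, in place of 0.50. The RHAG difference between SF and GM-CSF changed sign under both settings (−0.046 and −0.066), so its direction there depends on the scaling. Hybridization controls were 9.58 under Epo and 10.53 under GM-CSF, and 18S ribosomal RNA 7.45 and 9.02. Their part in the higher CA1 and RHAG signals was not tested.

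**Figure D3:**
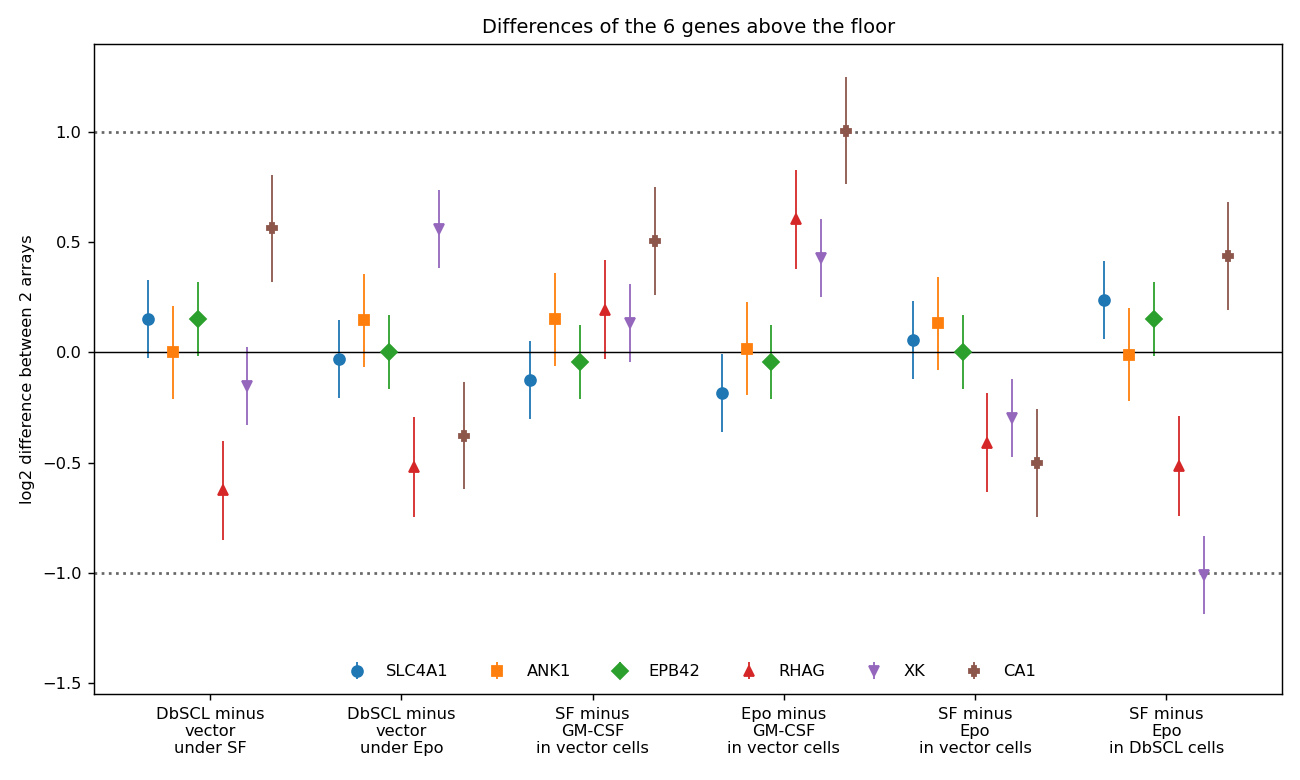
Log2 difference between 2 arrays (y axis) for the brightest probe set of each of the 6 compared members in 6 comparisons (x axis), with bars of 1 estimated spread (0.17 to 0.24, made without replicates) and dotted lines at 2-fold. CA1 passes 2-fold for Epo minus GM-CSF and XK for SF minus Epo in DbSCL cells, both by a margin smaller than the bar.

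SF was then set against Epo within each cell population. These comparisons reuse the arrays of the DbSCL and vector comparisons above. A change between the cell populations here is thus the same quantity as the change between the cytokines there. In vector cells CA1 (8.68 under SF and 9.18 under Epo), RHAG (8.44 and 8.85) and XK (5.74 and 6.04) were all lower under SF. The differences were −0.50, −0.41 and −0.30, values that 2.15%, 4.39% and 9.30% of 8312 genes matched or passed on the low side. None reached 1.5-fold, as 1.5% of all genes did in either direction. SLC4A1 gave 0.06, ANK1 0.13 and EPB42 exactly 0.

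In DbSCL cells the same comparison gave another order. XK read 5.59 under SF and 6.60 under Epo, a difference of −1.01 (2.01-fold lower), which 0.165% of 8472 genes matched or passed. No second XK probe set was there to check this. The hybridization controls were 10.57 on DbSCL SF and 9.78 on DbSCL Epo, and their part in the XK difference was not tested. XK was the 1 of 6 members past 2-fold, where 0.201% of all genes were lower by that much. RHAG read 7.81 under SF and 8.33 under Epo (difference −0.52), lower under SF as in vector cells. CA1 read 9.24 under SF and 8.81 under Epo (difference 0.44), higher under SF, where in vector cells it was lower. The member median was −0.15 in vector cells and 0.07 in DbSCL cells, against 0 for all genes in both.

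**Figure D4:**
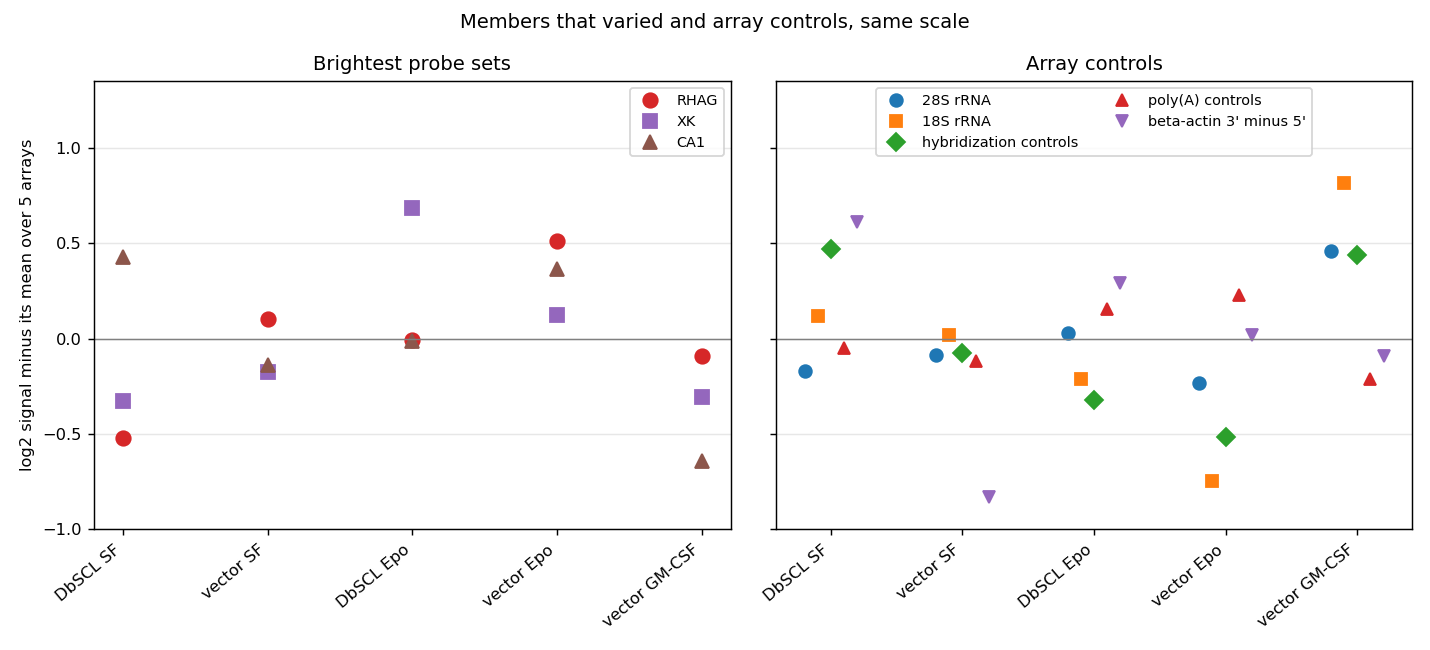
Log2 signal minus its own mean over the 5 arrays (y axis) for the brightest probe sets of RHAG, XK and CA1 (left) and for 5 array controls (right), by array (x axis). RHAG is lowest on DbSCL SF and highest on vector Epo, while the hybridization controls are highest on DbSCL SF (10.57) and lowest on vector Epo (9.58). CA1 is high on both of those arrays.

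The genes with the pattern most like that of CA1, the member with the largest range, were looked for among 411 genes with a range of at least 1. Likeness was the root mean square difference over 5 arrays between profiles centred on their own means. PRR5 was nearest (0.094), then PRDM10 (0.12) and UROS (0.13), which encodes uroporphyrinogen III synthase of haem synthesis. UROS read 6.73 on DbSCL SF, 6.50 on vector SF, 6.44 on DbSCL Epo, 6.85 on vector Epo and 5.64 on vector GM-CSF. As for CA1, vector GM-CSF was its lowest array, and DbSCL SF and vector Epo were its 2 highest. The same held for PRR5 and PRDM10. These genes were chosen for their likeness to CA1 on the same arrays, so this likeness follows from the choice and nothing is read from it.

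The members were set beside 2 lists of related genes. Of 43 other genes of the erythroid membrane, its skeleton and its surface, 37 had a matched probe set. Under Epo relative to GM-CSF, 2 of 34 compared genes were 2-fold or more higher, beside 3.46% of all genes. STOM, which encodes the membrane protein stomatin, read 9.38 under Epo and 8.22 under GM-CSF (difference 1.16), while a second STOM probe set above the floor gave −0.25. ADD3, the gamma subunit of the spectrin-binding protein adducin, read 7.21 under Epo and 6.21 under GM-CSF (just past 2-fold), and 2 other ADD3 probe sets above the floor throughout gave 0.22 and −0.13.

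In DbSCL cells, 2 of 33 genes of this list were 1.5-fold or more lower under SF and 4 of 32 under Epo, beside 3.68% and 2.78% of all genes, and none was higher by that much. ADD3 read 5.97 in DbSCL cells and 6.63 in vector cells under SF, and 6.30 in DbSCL cells and 7.21 in vector cells under Epo (differences −0.66 and −0.91). TPM1, a tropomyosin that lies along actin filaments, gave −0.71 under SF and −0.61 under Epo, with −0.41 and −0.43 for a second probe set and −0.06 and −0.36 for another. The other ADD3 probe sets above the floor throughout gave −0.81 and −0.21 under SF and −0.18 and −0.22 under Epo. STOM gave −0.25 under SF and −0.79 under Epo, and its second probe set −0.55 and 0.17, the opposite direction under Epo. MPP1, the remaining gene past 1.5-fold under Epo (−0.64), went the other way under SF (0.21). The list's median was 0.10 under SF and −0.016 under Epo, against 0 for all genes.

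Of 13 other carbonic anhydrase genes, 11 had a matched probe set and 7 were above the floor on all arrays. None of the 8 or 9 compared reached 1.5-fold in any comparison, where 5.1% (DbSCL minus vector under SF), 3.47% (under Epo), 8.18% (SF minus GM-CSF), 15.7% (Epo minus GM-CSF), 1.5% (SF minus Epo in vector cells) and 3.71% (in DbSCL cells) of all genes did. CA6, the secreted form, had the largest range (0.52), from 4.51 on DbSCL Epo to 5.03 on DbSCL SF. CA8, a member without enzyme activity, read 5.80 in DbSCL cells and 6.16 in vector cells under SF, and 5.89 in DbSCL cells and 6.29 in vector cells under Epo. CA5B, a mitochondrial form, ranged over 0.43.

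**Figure D5:**
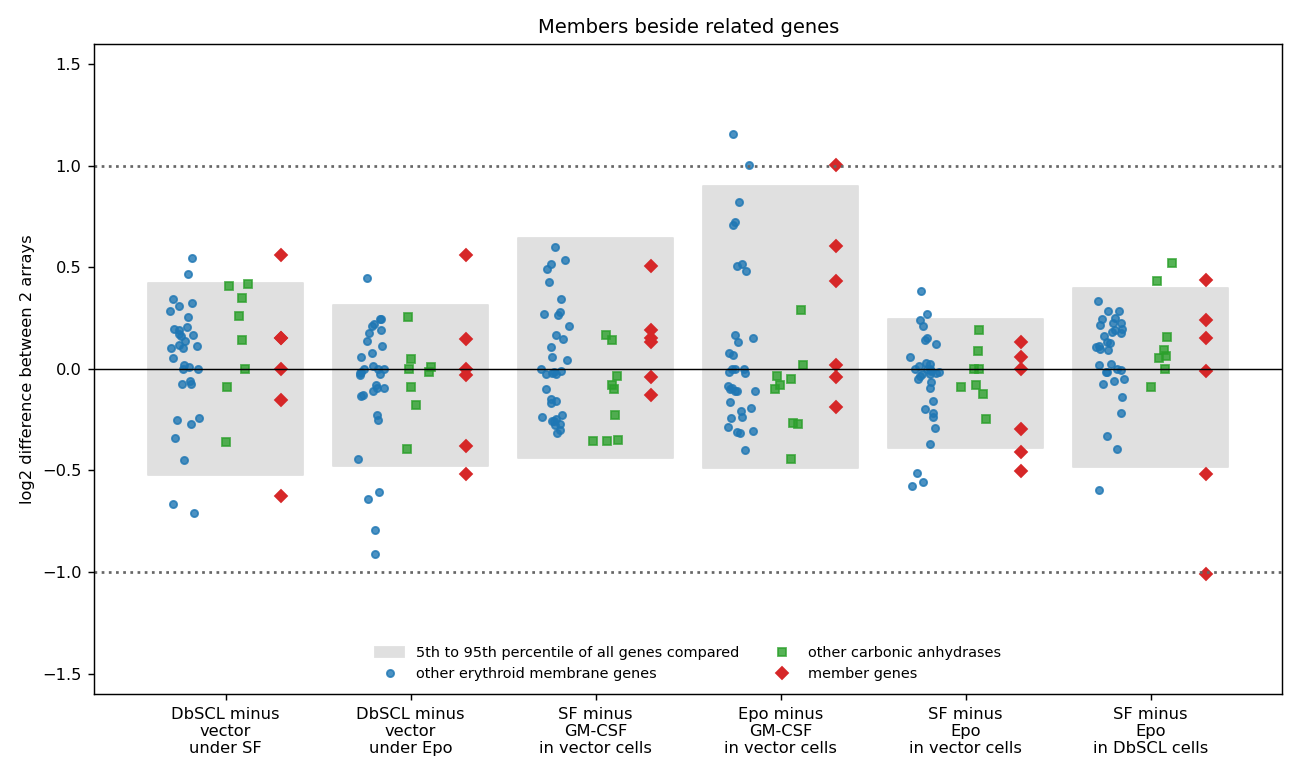
Log2 difference between 2 arrays (y axis) in 6 comparisons (x axis) for other erythroid membrane genes, other carbonic anhydrases and the compared members, over a grey band from the 5th to the 95th percentile of all genes compared. For DbSCL minus vector, RHAG lies below the band under both cytokines, CA1 above it under SF and XK above it under Epo. CA1 lies above it for Epo minus GM-CSF. For SF minus Epo, CA1 and RHAG lie below it in vector cells. In DbSCL cells RHAG and XK lie below it and CA1 above it.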

How the data were processed

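The authors deposited 1 log2 signal per probe set and array for 5 Affymetrix arrays, 1 per group. The summary method, its software and any normalization are not given in the sources used here, and the log2 unit was inferred from the range of the deposited values (2.08 to 13.77). At least 2 arrays held the identical value in 58.6% of 22215 non-control probe sets and in 6 of the 15 member probe sets, so a small or zero difference may come from how signals were summarised. Values were used as deposited. Lower values were set to the floor of 4.45, and a gene entered a comparison when either array was above it. Differences of at least 1 on the log2 scale (2-fold) were counted, with 1.5-fold as an alternative, and the brightest probe set by mean stood for a gene. Probe sets were named from the platform's annotation. Analysis used Python 3.11.15, pandas 2.3.3 and numpy 2.4.6. The counting was tested on simulated data. Arrays give no depth, and their number limits the precision.

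The members and lists were chosen with earlier results of these data known. The genes named were all members, every related gene at 2-fold, the 3 of each related list with the largest range, and the 3 nearest in pattern to CA1. Markers given as examples, TPM1's and other genes' further probe sets, CA3 and MPP1 were named after their values were seen. Quantile normalization, median centring, no floor, a floor at the 50th percentile, the mean of a gene's probe sets and 1.5-fold were tried as alternatives, and centring by 10 bins of signal was added after seeing the data.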

Additional observations from a re-analysis of the deposited data

Results flagged for a closer look

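In 3 members the DbSCL difference under SF had the opposite sign to that under Epo, with 1 array per group and no test of the change. Opposite signs were common, in 28.9% of the 7918 genes above the floor on every array, and nothing is read from 3 of 6 members. For CA1 the differences were 0.56 under SF and −0.38 under Epo, which lie 0.94 apart, and 0.354% of 7918 genes had a value at least as high. For XK they were −0.15 under SF and 0.56 under Epo, or −0.71 for SF minus Epo, and 1.79% of genes lay at least as low. For SLC4A1 they were 0.15 under SF and −0.03 under Epo, 0.18 apart. The estimated spread for that gene (0.18) is that of a single difference, too narrow a scale for a difference between 2 differences. The difference between cytokines was not tested in any of these cases. It is the same quantity as the change in SF minus Epo between vector and DbSCL cells, described above, and not a separate observation.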

How the results depend on the processing

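Epo minus GM-CSF was the comparison most open to the processing. Its 1 member at 2-fold became 0 with quantile normalization, with averaged probe sets and with centring by bins of signal (chosen after seeing the data), and 2 at 1.5-fold. Averaging probe sets turned its member median into 0.063. DbSCL minus vector under SF had 1 member at 1.5-fold in place of 0 at 2-fold. The median for SF minus GM-CSF became −0.011 with quantile normalization, and that for SF minus Epo in vector cells became 0 with no floor, which adds CA2. Under the other alternatives run, no count of members changed and each member median moved by less than 0.13. Of 390 single probe set values under the alternatives, 7 moved by more than the estimated spread, all of RHAG or CA1 against GM-CSF, and none at 2-fold changed sign. XK stayed past 2-fold for SF minus Epo in DbSCL cells (−1.05 at the lowest), where quantile normalization gave −1.001, at the limit. The RHAG probe set 206145_at stayed lower in DbSCL cells (−0.68 to −0.52 under SF, −0.55 to −0.38 under Epo). The mean of all 3 RHAG probe sets, which includes those that did not follow, gave only −0.26 and −0.20. Except for the fold, the floor and the averaging, the cause of these moves was not tested. No paired analysis was possible because each group had 1 array, and no replicate could be left out.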

Other observations

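Some red cell surface genes of the related list had probe sets that differed in size or direction, and they are given here after their values were seen. CD44, the hyaluronan receptor that carries the Indian blood group, had a probe set, 212063_at, that read 5.63 on DbSCL SF, 6.98 on vector SF, 6.26 on DbSCL Epo, 6.40 on vector Epo and 5.78 on vector GM-CSF. Its difference was −1.35 for DbSCL minus vector under SF and 1.20 for SF minus GM-CSF, past 2-fold in both. The brightest CD44 probe set gave −0.24 and 0.15 for the same comparisons, so CD44 was not counted. All 6 CD44 probe sets above the floor throughout had the same directions, from −1.35 to −0.19 for DbSCL minus vector under SF and from 0.097 to 1.20 for SF minus GM-CSF. Both comparisons use the vector SF array, on which all 6 read highest, so they are not independent of each other. That array also had the narrowest beta-actin gap between 3' and 5' probe sets (1.89), whose part was not tested. CD47, the surface protein that restrains phagocytosis of red cells, gave 0.52 for Epo minus GM-CSF in its brightest probe set and 1.09 in 211075_s_at, but −0.66 in 213055_at.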
